A study of Fagopyrum tataricum with 9 samples.

Results

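The NAC transcription factor genes of Tartary buckwheat (Fagopyrum tataricum) were followed through seed development. A gene was counted as a NAC gene when the protein that the deposited annotation matches to it in Swiss-Prot is called a NAC domain-containing protein or a NAC transcription factor. This rule found 73 of the 33931 genes in the deposited tables. They carry 30 Swiss-Prot names, 71 of the genes being matched to Arabidopsis thaliana proteins and 2 to the durum wheat protein NAM-B2. A name such as NAC43 therefore gives the protein that a gene resembles, and several buckwheat genes can share it. The match was weak for 5 members, with an expect value over 1e-20, among them the genes named NAC26 and NAC76.

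NAC proteins are plant transcription factors that bind DNA through a conserved domain near their start. In Arabidopsis, NAC43, NAC66 and NAC12 (NST1, NST2 and SND1) switch on the thick secondary walls of fibres, and the VND proteins (NAC7, NAC26, NAC30, NAC37 and NAC76) do so in water-conducting vessels. Below them NAC73 (SND2) acts on wall synthesis, and NAC83 (VNI2) holds a VND protein back. Other members act late in the life of an organ: NAC29 (NAP) promotes leaf senescence, the wheat NAM-B proteins speed senescence and the movement of nutrients into grain, and NAC56 (NARS1) acts in the seed coat. NAC2 (ATAF1), NAC19 and NAC72 (RD26) answer drought and abscisic acid. A buckwheat seed sits in a dry, lignified fruit wall, the hull, and the labels do not say whether the hull was removed.

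All samples were seeds of the variety MIQIAO 1, grown in a field, untreated, with no genotype or treatment contrast. Seeds came from a green fruit stage, a discoloration stage and an initial maturity stage, with 3 RNA sequencing libraries from each. The protocol gives sampling at 13, 19 and 25 days after anthesis (flower opening) without tying a day to a stage name. The 3 plants are described as the replicates, but no label says that a library number marks a plant, so p-values measure the spread between these libraries only.

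Total counts were 21585045 to 26777643 per library. In each stage 2 libraries were close to each other (green fruit 2 and 3, discoloration 2 and 3, initial maturity 1 and 3), and the chi-square over genes, divided by its degrees of freedom, was 1.98 to 3.54 for these pairs and 42.5 to 255 for the others within a stage. The pairs still differed by more than counting noise. That does not tell whether a pair came from a single RNA sample, and no label says so. All were kept as separate libraries, so if a pair is a repeat, the n = 3 of a stage overstates its independent samples. Counts with each close pair added together are given beside those of the family and of its main classes and lists. Green fruit library 1 held more seed storage transcripts (17 of 17 marker genes detected, 67167 scaled counts per 1e6 reads, CPM, in sum against 18682 and 19484 in libraries 2 and 3) and fewer vascular and hull transcripts (134 against 885 and 922 in sum over 21 marker genes, with 3, 1 and 1 of them at 0). Storage transcripts then summed to 305043 to 343683 CPM at discoloration and 276323 to 414936 at initial maturity, vascular and hull markers to 47.1 to 72.4 and 29.6 to 31.0 with 4 to 10 of the 21 at 0, and green tissue markers went from 1663 to 3890 through 608 to 865 to 58.5 to 70.1, with none of 21 at 0 before initial maturity and 1 to 3 there. Pollen markers summed to 371 to 427, 238 to 288 and 276 to 302, with 3 to 6 of 14 at 0. Their part in the results on NAC genes was not tested, and in bulk seed samples fewer cells of a type and less RNA per cell cannot be told apart.

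How a level can be read depends on the scale, and the part of the storage transcripts in this was not tested. The CPM values here are scaled by the trimmed mean of M-values (TMM), which assumes that most genes keep their level and puts the median gene near 0 change. The deposited FPKM (fragments per kilobase of gene and library size) are shares of the whole library. With library totals alone as the scale, the median of all genes moved by a log2 of -1.03 from green fruit to discoloration, -0.37 from discoloration to initial maturity and -1.39 over both. Summed over the 73 members, TMM-scaled CPM went from 856 ± 127 (SD, n = 3) through 1687 ± 155 to 2036 ± 327, while summed FPKM were 1298 ± 61.4, 1380 ± 70.6 and 1332 ± 152. On the FPKM scale the ranges of the 3 stages overlapped, and on the CPM scale green fruit lay below both later stages.

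Of the 73 members, 66 passed the filter on low counts and were tested, and 53 had a mean FPKM above 1. The 7 others were a NAC12, a NAC25, a NAC83, 2 NAC86, a NAC94 and a NAC100 gene, each with some counts. With edgeR's quasi-likelihood test and an adjusted p under 0.05, 35 of the 66 differed between discoloration and green fruit (26 higher, 9 lower). Over all genes tested 39.5% were called, 19.5% higher and 19.9% lower, so more of the called members were higher than among genes at large, a difference that was not tested. From discoloration to initial maturity 27 members were called, 10 higher and 17 lower, beside 36.4% of all genes (16% higher, 20.4% lower). Over both intervals 48 members were called, 24 each way, beside 60.8% of all genes (28.3% and 32.5%). The medians of the 66 log2 fold changes were 0.32, -0.28 and 0.03, beside -0.041, -0.022 and -0.056 for all genes.

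The split between higher and lower moved with the scale. With library totals, which lower all genes by the medians given above, it was 10 higher and 30 lower in the earlier step, beside 76% of all genes called (7.74% higher, 68.3% lower). It was 5 and 20 in the later step, beside 38.4% (7.98% and 30.4%), and 12 and 41 over both, beside 82.6% (8.86% and 73.7%). With the close pairs added together 13, 9 and 34 members were called, beside 11.7%, 6.77% and 37.4% of all genes, and with the library that stands apart left out of each stage 57, 49 and 60, beside 74.0%, 67.6% and 80.7%. The NAC12 gene passed the filter in that last setting, so the counts are of 67 members, and 56, 49 and 59 of the same 66 were called.

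The members took several courses. Over the 3 stages together 56 of 66 were called, beside 65.4% of all genes (34 and 32.6% with close pairs added, 63 of 67 and 89.6% without the libraries standing apart). Of the steps taken one by one, 14 members rose first and were not called after, 9 fell first and were not called after, 7 rose and then fell, and 5 rose in both steps. A further 10 fell and 5 rose in the later step alone by these calls, and 16 were called in neither. The share of all genes on each course was not worked out, so these counts do not set the family apart from genes at large. The size of the 2 steps differed by its own test for 21 members (3 higher and 18 lower in the later step, beside 20% of all genes, 6.58% and 13.4%). With close pairs added it did so for 2 members, beside 0.586% of all genes, and without the libraries standing apart for 45 of 67, beside 60.6%.

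**Figure D1:**
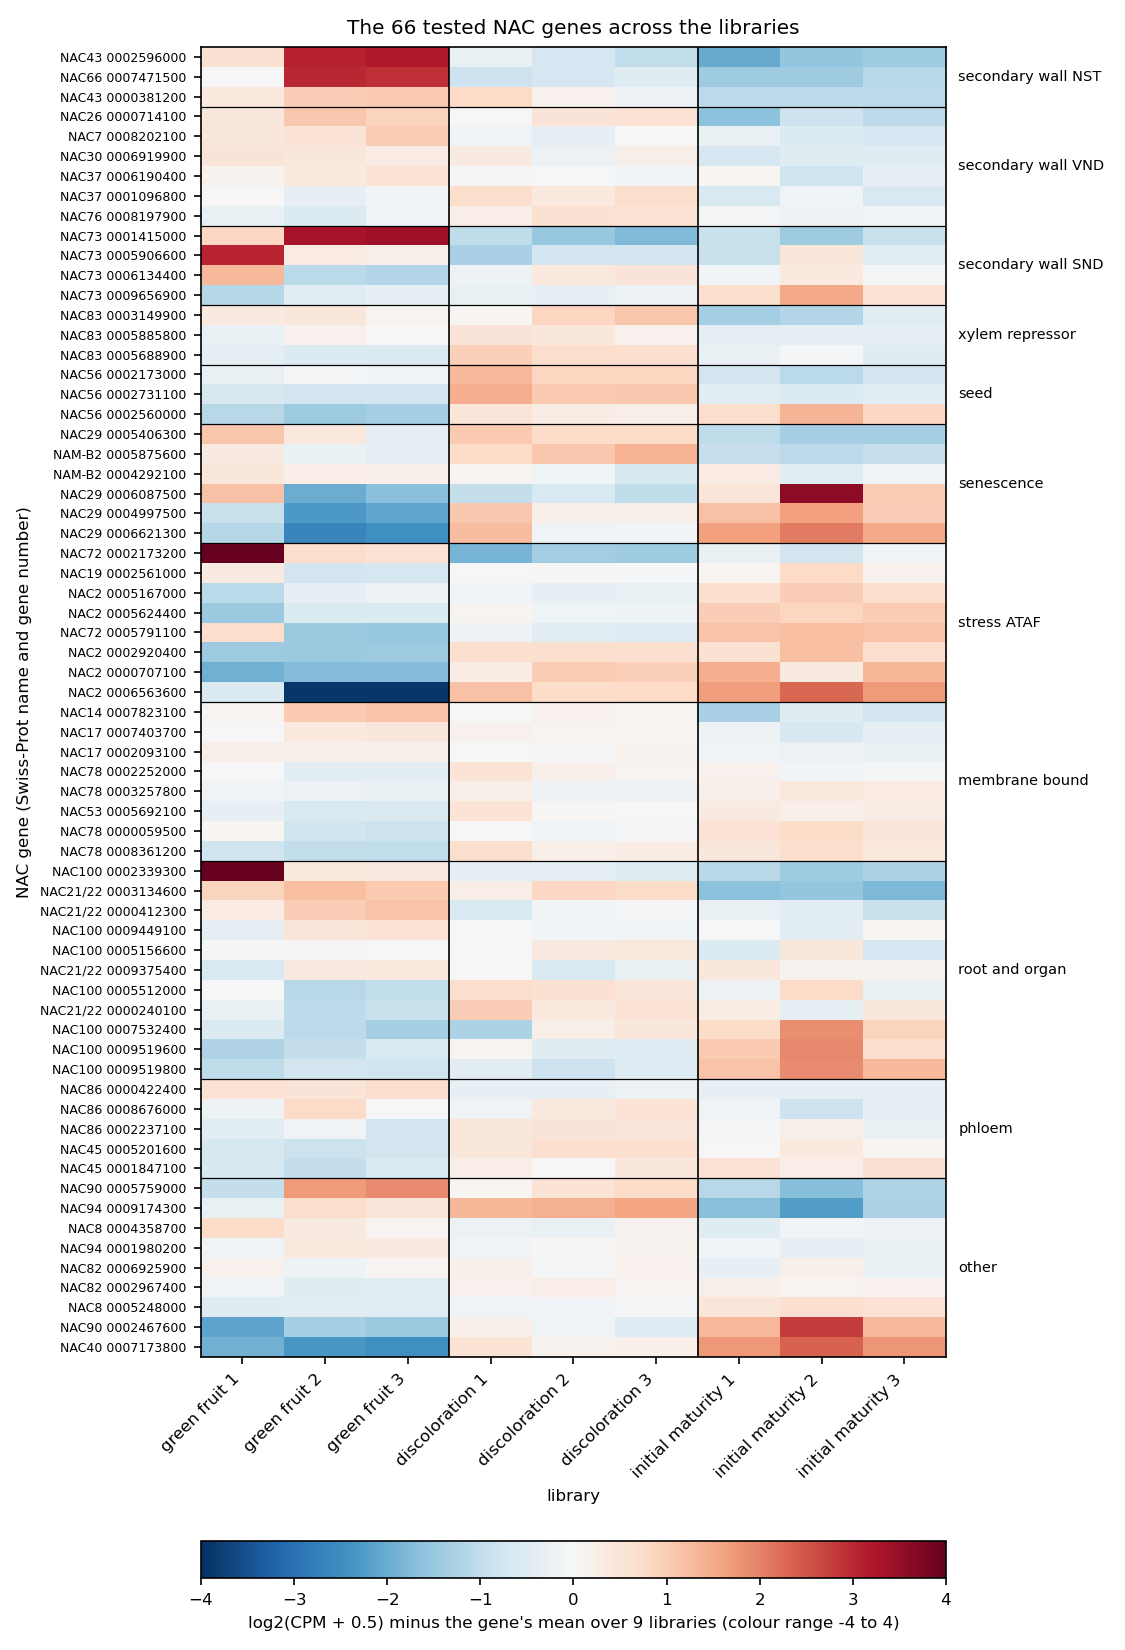
Level of each of the 66 tested NAC genes (rows, by class) in the 9 libraries (columns), as log2(CPM + 0.5) minus the gene's mean over the libraries; red is above and blue below that mean. The NST rows are red in green fruit 2 and 3, the seed rows are reddest at discoloration or at initial maturity, and green fruit 1 differs from its stage in several rows, such as NAC72 FtPinG0002173200.01 with 70.0 CPM against 4.28 and 3.88.

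The fibre wall switches were lowest at initial maturity. NAC43 FtPinG0002596000.01 had 2.56, 16.6 and 18.2 CPM in the 3 green fruit libraries, 1.17, 0.755 and 0.514 at discoloration, and 0, 0.19 and 0.258 at initial maturity. The stages did not overlap, and within green fruit library 1 stood well below libraries 2 and 3. The gene fell by 3.93 on the log2 scale from green fruit to discoloration (SE 0.75, adjusted p = 0.00335), and the log2 fold change to initial maturity was -6.34 (SE 0.95, adjusted p = 4.0e-04).

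NAC66 FtPinG0007471500.01, named for a close relative of NAC43, ran in parallel. Its CPM were 0.853, 10.4 and 9.8, then 0.255, 0.355 and 0.467, then 0, 0 and 0.129. It fell by 4.26 (SE 0.9, adjusted p = 0.00544), and the change over both intervals was -7.21 (SE 1.23, adjusted p = 8.5e-04).

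The second NAC43 gene, FtPinG0000381200.01, had a smaller log2 fold change in the earlier step, a difference between genes that was not tested. It had 0.853, 1.53 and 1.61 CPM in green fruit, 1.28, 0.666 and 0.374 at discoloration, and no count in any library at initial maturity. Green fruit and discoloration overlapped and the step between them was not called (log2 -0.79, SE 0.52, adjusted p = 0.262). At initial maturity it was at least 12.1-fold lower than at discoloration (adjusted p = 0.00424) and at least 20.9-fold lower than in green fruit (adjusted p = 6.9e-04), the bounds resting on a floor of 3 counts over the stage. The NAC12 gene, FtPinG0005564800.01, was not tested, with 0.055, 0.306 and 0.332 CPM in green fruit, a single library with counts at discoloration and none at initial maturity, at least 3.62-fold lower there than in green fruit.

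Summed over the 4 genes, the NST class had 4.32, 28.8 and 29.9 CPM in green fruit, 2.70, 1.78 and 1.40 at discoloration and 0, 0.19 and 0.386 at initial maturity. Green fruit library 1, low in this class, was also low in vascular and hull markers, as given above. Those markers are secondary wall cellulose synthase, laccase and xylem cysteine proteinase genes. The cellulose synthases and laccases recur in the wall synthesis list below, and the proteinases in the list of xylem and organ death. The markers and those lists are therefore not separate observations. With close pairs added, the falls of NAC43 FtPinG0002596000.01 and NAC66 to discoloration missed the threshold (adjusted p = 0.0526 and 0.072), while the 3 falls to initial maturity kept it (adjusted p = 0.0078, 0.0141 and 0.00874).

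The vessel type genes moved less and not all in the same direction. Of 6 VND genes, 1 was lower and 2 were higher at discoloration than in green fruit, 4 were lower at initial maturity than at discoloration, and none was higher in the later step. Beside these counts, 19.5% of all genes were called higher and 19.9% lower in the earlier step, and 16% and 20.4% in the later step. A difference between this class and genes at large was not tested. NAC26 FtPinG0000714100.01, with a weak name match, had 4.62, 7.36 and 6.38 CPM, then 3.16, 4.75 and 5.09, then 0.701, 1.58 and 1.29. Its initial maturity libraries lay below all others, and it fell by 1.86 in the later step (SE 0.35, adjusted p = 0.00372).

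NAC7 FtPinG0008202100.01, the match to VND4, had 0.743, 0.836 and 1.35 CPM in green fruit, 0.306, 0.222 and 0.42 at discoloration and 0.255, 0.126 and 0.0644 at initial maturity. It fell by 1.61 in the earlier step (SE 0.46, adjusted p = 0.0213) and by 2.68 over both (SE 0.54, adjusted p = 0.00209). NAC30 FtPinG0006919900.01, the match to VND7, the strongest inducer of vessel formation in Arabidopsis, was at or under 0.633 CPM in every library and fell by 2.97 in the later step (SE 0.77, adjusted p = 0.0153).

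The 2 NAC37 genes, matches to VND1, differed in course. FtPinG0001096800.01 had 0.347 to 0.578 CPM in green fruit, 0.888 to 1.22 at discoloration and 0.191 to 0.442 at initial maturity, a rise of 1.24 (SE 0.39, adjusted p = 0.0319) and then a fall by 1.99 (SE 0.45, adjusted p = 0.00881). FtPinG0006190400.01 was called over both intervals alone (log2 -1.16, SE 0.46, adjusted p = 0.0493).

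NAC76 FtPinG0008197900.01, a weak match to VND2, had 5.45, 4.51 and 5.95 CPM, then 8.37, 10.6 and 10.3, then 6.37, 5.81 and 6.25. All 3 discoloration libraries were above the others, with a rise of 0.88 (SE 0.17, adjusted p = 0.00401) that library totals turned into -0.10, and a fall by 0.67 after it (SE 0.18, adjusted p = 0.0173). Its mean FPKM were 7.81, 7.28 and 3.59.

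Among the VND results, 3 falls over both intervals (NAC7, NAC26 and NAC30) were called with close pairs added (adjusted p = 0.022, 0.0125 and 0.017). No single step was called in that setting. Beside these, 11.7% of all genes were called in the earlier step, 6.77% in the later step and 37.4% over both intervals. Leaving out 1 library ended the earlier step of NAC7 (green fruit 3, discoloration 1 or 2, adjusted p up to 0.0984), the rise of NAC37 FtPinG0001096800.01 (green fruit 2 or 3 or any discoloration library, up to 0.126), the later step of NAC30 (discoloration 3, 0.0527) and of NAC76 (discoloration 2 or 3, up to 0.076), and the call of NAC37 FtPinG0006190400.01 (green fruit 2 or 3, any discoloration library, initial maturity 2 or 3, up to 0.145).

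The 4 NAC73 genes, matches to the downstream factor SND2, took different courses. NAC73 FtPinG0001415000.01 followed the NST genes, with 3.63, 22.4 and 23.8 CPM in green fruit, 0.663, 0.311 and 0.187 at discoloration and 0.764, 0.379 and 0.773 at initial maturity. It fell by 5.43 (SE 0.77, adjusted p = 8.3e-04; with close pairs added, 0.0303) and was not called after that (log2 0.74, adjusted p = 0.539).

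NAC73 FtPinG0005906600.01 also fell, but within green fruit it was high where the NST genes were low. Its CPM were 20.9, 2.73 and 2.55, then 0.561, 1.07 and 1.03, then 0.892, 3.1 and 1.42. The fall by 3.28 (SE 0.89, adjusted p = 0.0165) became 1.56 lower on the log2 scale (-1.56, adjusted p = 0.0199) without green fruit library 1. It was not called without any one of the discoloration libraries (adjusted p up to 0.0658) or with close pairs added (0.0577). Over both intervals the log2 fold change of -2.27 (adjusted p = 0.0408) became -0.55 (0.304) without green fruit library 1, and the call was also lost without initial maturity 1 or 3 or any discoloration library.

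NAC73 FtPinG0009656900.01 went the other way. It had 3.03, 5.35 and 5.66 CPM, then 5.76, 5.69 and 6.21, then 11.7, 21.5 and 11, and rose by 1.32 in the later step (SE 0.31, adjusted p = 0.0107; with close pairs added, 0.0812). Its mean FPKM were 9.2, 5.71 and 11, so in shares of the library the first and last stage were near each other. NAC73 FtPinG0006134400.01 was called in no comparison, with 7.01 CPM in green fruit 1 and 0.842 to 3.78 in the 8 other libraries.

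**Figure D2:**
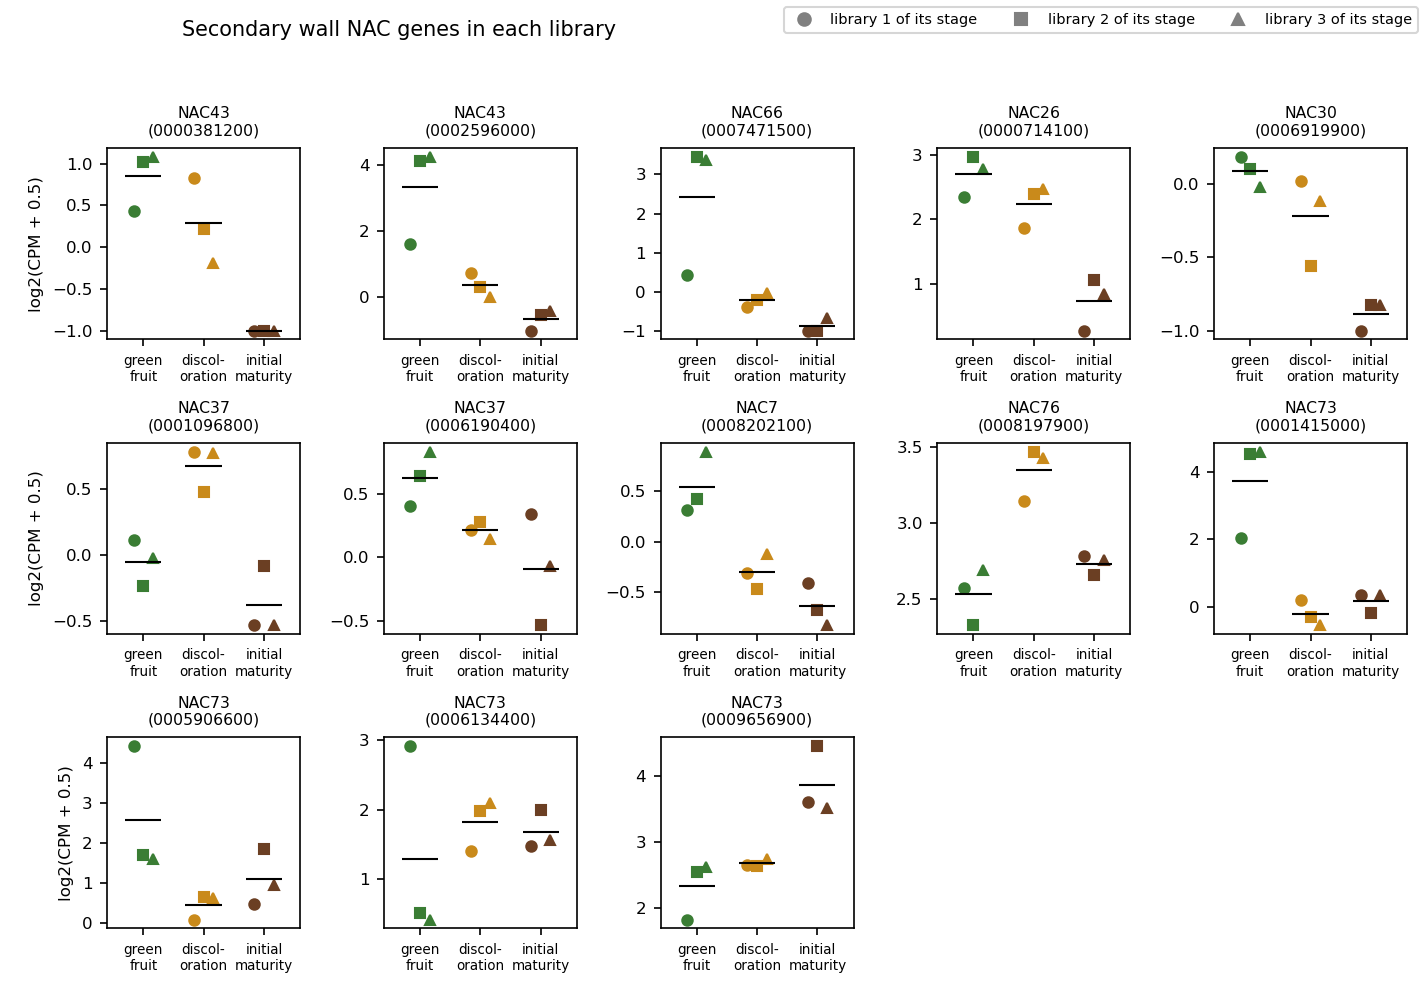
Level of the 13 tested secondary wall NAC genes as log2(CPM + 0.5), 1 panel per gene with its own axis; points are libraries, the shape gives the library number and the line is the mean of the stage. NAC43 FtPinG0002596000.01, NAC66 and NAC73 FtPinG0001415000.01 are high in green fruit 2 and 3 (10.4 CPM or more, NAC66 in library 3 at 9.8), and NAC73 FtPinG0009656900.01 is highest at initial maturity (11 to 21.5 CPM).

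The matches to VNI2, which binds and restrains a VND protein in Arabidopsis, peaked at discoloration in the one well expressed gene. NAC83 FtPinG0005688900.01 had 55, 49.2 and 48.9 CPM, then 141, 120 and 115, then 61.1, 69.1 and 52.4. It rose by 1.30 (SE 0.17, adjusted p = 5.0e-04) and then fell by 1.04 (SE 0.17, adjusted p = 0.00189), with the discoloration libraries above all others and mean FPKM of 109, 135 and 51.3. With library totals the rise was not called (log2 0.31, adjusted p = 0.0826).

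The 2 other tested NAC83 genes were called in the later step. FtPinG0003149900.01 went from 0.867 to 2.29 CPM at discoloration to 0 to 0.451 at initial maturity (log2 -3.25, SE 0.80, adjusted p = 0.0129), and FtPinG0005885800.01 from 0.514 to 0.765 to 0.19 to 0.193 (log2 -1.77, SE 0.46, adjusted p = 0.0155). Without initial maturity library 3 the first of these changes was -5.52 (adjusted p = 0.005), and the second lost its call without discoloration 2 or initial maturity 1 or 3 (adjusted p up to 0.0597). With close pairs added the rise of FtPinG0005688900.01 was kept (adjusted p = 0.0346), and the 3 falls were not (0.0738, 0.0571 and 0.145).

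The seed class held 3 tested NAC56 genes, named for a factor of the Arabidopsis seed coat, and all 3 rose from green fruit to discoloration. NAC56 FtPinG0002731100.01 had 45, 41.8 and 42.4 CPM, then 194, 147 and 151, then 51.8, 48.8 and 52.5. It rose by 1.93 (SE 0.17, adjusted p = 6.9e-05) and fell by 1.68 (SE 0.16, adjusted p = 2.8e-04), and the discoloration libraries lay apart from both other stages.

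NAC56 FtPinG0002173000.01 turned at the same stage and ended lower than it began. Its CPM were 40.3, 47.3 and 46, then 122, 91.4 and 89.5, then 29.4, 23.4 and 29.9. It rose by 1.18 (SE 0.18, adjusted p = 0.00115), fell by 1.87 (SE 0.18, adjusted p = 2.8e-04) and over both was lower by a log2 of -0.69 (SE 0.18, adjusted p = 0.00809).

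NAC56 FtPinG0002560000.01 went on rising. It had 40.8, 31.9 and 33.6 CPM, then 122, 109 and 104, then 144, 227 and 155, with no overlap between stages. It rose by 1.65 (SE 0.22, adjusted p = 5.4e-04) and over both intervals by 2.31 (SE 0.22, adjusted p = 3.5e-05), and its mean FPKM rose with it, at 61.2, 97.9 and 120. The later step (log2 0.65, adjusted p = 0.0386) was lost without green fruit 2 or 3, any discoloration library, or initial maturity 2 or 3 (adjusted p up to 0.134; 0.42 without initial maturity 2) and with close pairs added (0.214).

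The 3 rises to discoloration and both falls were called with close pairs added (adjusted p = 0.016 to 0.0396 for the rises, 0.0271 and 0.0317 for the falls). Under library totals the rise of FtPinG0002173000.01 missed the threshold (log2 0.17, adjusted p = 0.453), and the 2 others kept it (0.94 and 0.68, adjusted p = 7.7e-04 and 0.0057). The only other gene of the class, the NAC25 gene FtPinG0009426800.01, had at most 0.11 CPM and was not tested.

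The senescence class was split. Of 4 genes matched to NAC29, the leaf senescence factor NAP, 2 rose strongly. NAC29 FtPinG0006621300.01 had 8.91, 2.79 and 3.27 CPM in green fruit, then 47.7, 18.3 and 18.5, then 64.3, 87.5 and 59.1, rising by 2.5 (SE 0.52, adjusted p = 0.00518) and over both intervals by 3.82 (SE 0.55, adjusted p = 3.1e-04). NAC29 FtPinG0004997500.01 had 7.23, 2.41 and 2.93, then 29.7, 16.1 and 16.4, then 32.2, 44.2 and 28.0, rising by 2.31 (SE 0.44, adjusted p = 0.00316) and by 3.06 (SE 0.45, adjusted p = 3.4e-04).

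In both genes library 1 was the highest of its stage in green fruit and in discoloration, and green fruit did not overlap with the later stages. Mean FPKM were 8.29, 24.4 and 48.2 for the first and 7.83, 20.2 and 26.7 for the second, so the direction was the same on both scales. The later step was called in neither (adjusted p = 0.0634 and 0.182). It was called for FtPinG0006621300.01 without green fruit 1 (1.32, adjusted p = 0.0134) or discoloration 1 (1.93, 0.0211). For FtPinG0004997500.01 it was called without green fruit 1 (0.75, 0.0397). With close pairs added, 1 of the 6 tested senescence genes was called higher in the earlier step, beside 3 in the main fit. Over both intervals 2 were, as in the main fit. Of all genes 11.7% and 37.4% were called either way with close pairs added.

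NAC29 FtPinG0005406300.01 did the opposite at the end, but its name rests on a much weaker match. The expect value was 3.1e-26, beside 1.2e-108 for FtPinG0006621300.01 and 1.6e-108 for FtPinG0004997500.01. NAC29 FtPinG0005406300.01 had 2.23, 1.18 and 0.485 CPM, then 2.09, 1.6 and 1.59, and at initial maturity 0.127 in 1 library and no count in the other 2. The fall in the later step was 5.22 on the log2 scale (-5.22, SE 0.94, adjusted p = 0.00321), and -8.6 (adjusted p = 0.00813) without the library that had counts, initial maturity 1.

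NAC29 FtPinG0006087500.01 rested on single libraries, with 5.61, 0.184 and 0.357 CPM in green fruit, 0.841 to 1.29 at discoloration and 3.31, 31.8 and 5.02 at initial maturity. It was called in no comparison, missing the threshold in the later step (log2 3.71, SE 1.31, adjusted p = 0.0507). That step was called without green fruit library 1, 2 or 3 (adjusted p = 0.00622, 0.0335 and 0.0431). Over both intervals the gene was called without green fruit library 1 (log2 5.65, adjusted p = 0.00161).

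Of the 2 matches to wheat NAM-B2, with expect values of 7.0e-35 and 4.6e-22, the first turned at discoloration. NAM-B2 FtPinG0005875600.01 had 3.0, 1.77 and 1.58 CPM, then 4.13, 5.33 and 6.73, then 0.955, 0.821 and 0.966, with discoloration above and initial maturity below all other libraries. It rose by 1.35 (SE 0.31, adjusted p = 0.00752; with close pairs added, 0.149) and fell by 2.56 (SE 0.34, adjusted p = 8.4e-04; with close pairs added, 0.0375). NAM-B2 FtPinG0004292100.01 was not called in any comparison, at 0.467 to 1.57 CPM.

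**Figure D3:**
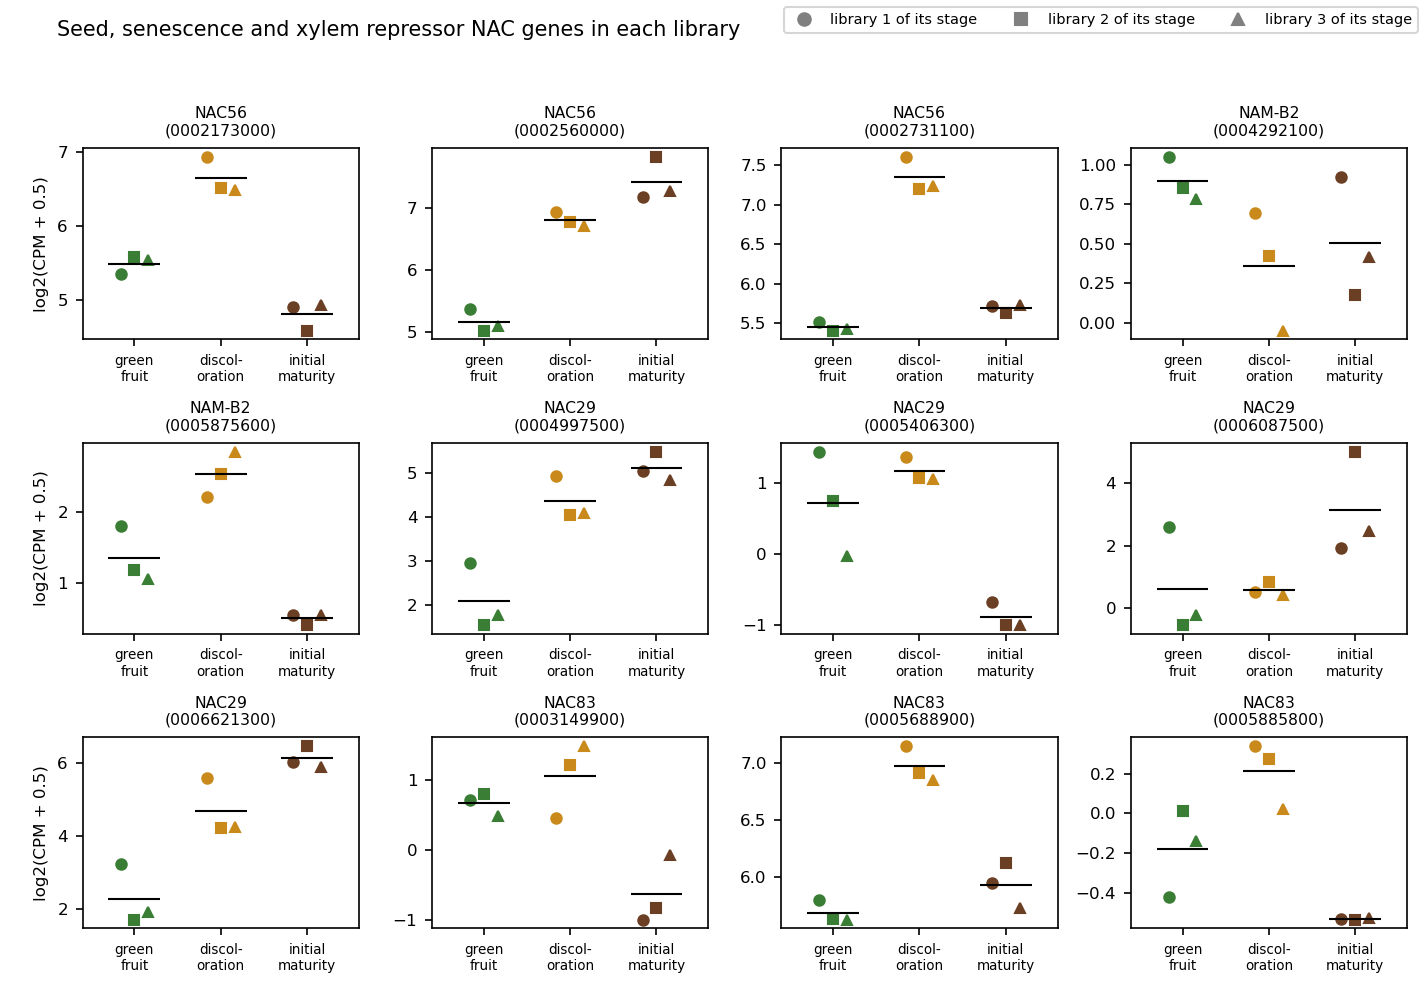
Level of the 3 seed, 6 senescence and 3 xylem repressor NAC genes tested, as log2(CPM + 0.5), 1 panel per gene with its own axis; points are libraries, the shape gives the library number and the line is the mean of the stage. NAC56 FtPinG0002731100.01 peaks at discoloration (147 to 194 CPM), while NAC56 FtPinG0002560000.01 and NAC29 FtPinG0006621300.01 are highest at initial maturity (144 to 227 and 59.1 to 87.5 CPM).

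Set side by side, the called secondary wall members were mostly lower, and the called senescence and seed members were higher in the earlier step. Of the 13 tested NST, VND and SND genes, 2 were higher and 5 lower at discoloration than in green fruit, with a median log2 fold change of -0.67. Of the 9 tested senescence and seed genes, 6 were higher and none lower, with a median of 1.35, beside 19.5% higher and 19.9% lower of all genes. In the later step the counts were 1 higher and 5 lower for the wall genes (median -1.06) and 1 higher and 4 lower for the others (median 0.24), beside 16% and 20.4%. Over both intervals they were 1 and 9 (median -2.36) against 3 and 3 (median 0.25), beside 28.3% and 32.5%. With library totals the wall genes split 0 and 9, 1 and 5, and 0 and 11 in the 3 comparisons, and the others 4 and 1, 0 and 4, and 3 and 5. Of all genes 7.74% were higher and 68.3% lower on that scale, then 7.98% and 30.4%, and 8.86% and 73.7%. The share of wall genes called lower in the earlier step was thus near that of all genes.

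The difference between the class medians was -2.02, -1.30 and -2.61 in the 3 comparisons, and it kept its sign under each alternative run. No test was made of a class as such. The wall names 7, 12, 43, 66 and 73 alone, 8 tested genes, gave 0 higher and 5 lower in the earlier step (median -2.45) and 1 and 6 over both (median -3.68, or -3.53 with the gene at 0 set to its bound). With close pairs added, the called wall genes were 1, 1 and 8 and the called senescence and seed genes 4, 4 and 4, beside the 11.7%, 6.77% and 37.4% of all genes given above.

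In summed CPM by library, the 14 wall genes had 51.7, 74.9 and 78.7 in green fruit, 26.1, 29.6 and 30.7 at discoloration and 23.9, 36.8 and 24.3 at initial maturity. The 10 senescence and seed genes had 155, 131 and 132, then 523, 391 and 389, then 327, 464 and 331. Per length, as summed FPKM, the wall genes had 55.6 to 127 in green fruit and 15.6 to 23.1 in the 6 later libraries, and the others 225 to 226, then 323 to 408, then 229 to 303. On the FPKM scale the senescence and seed sum thus ended near where it began.

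**Figure D4:**
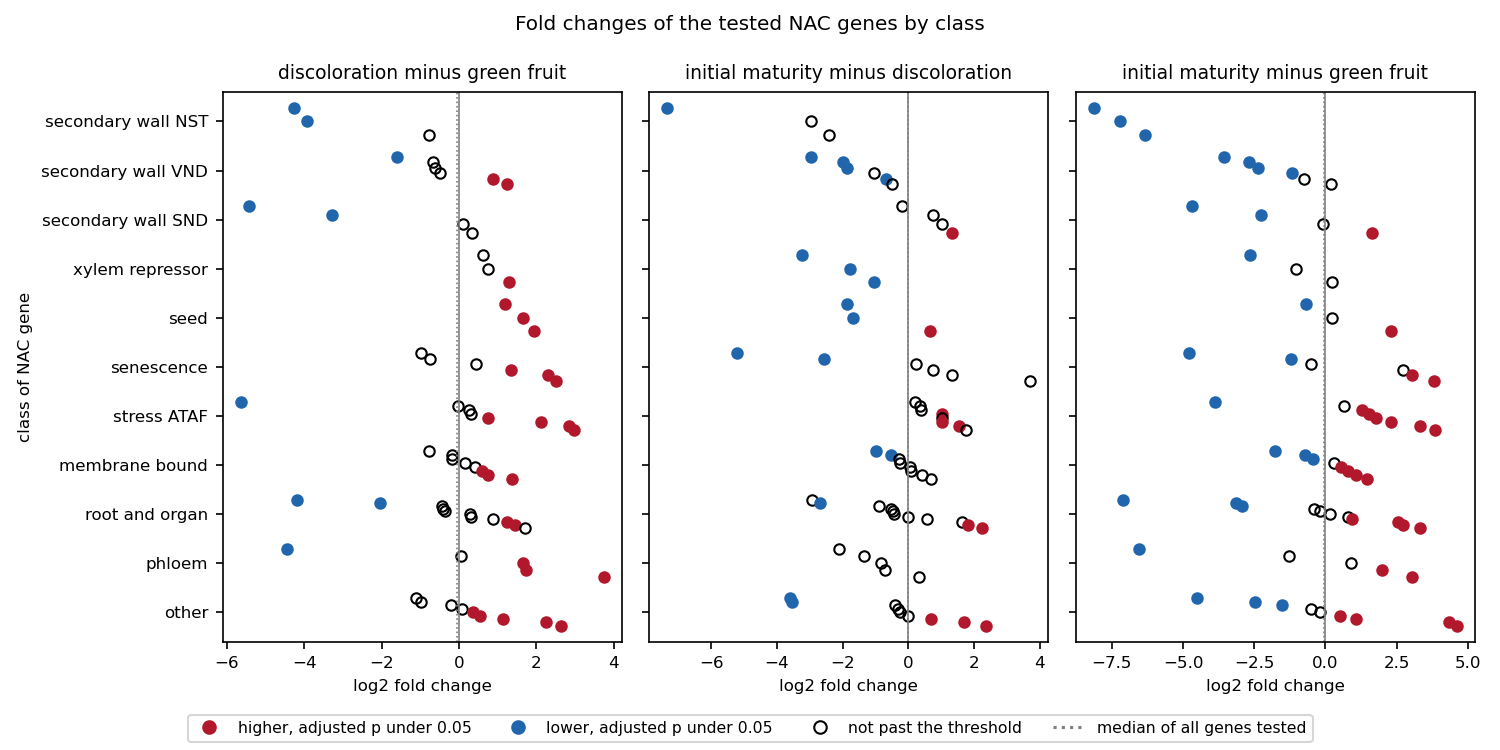
Log2 fold change of each tested NAC gene (horizontal) by class (vertical) in the 3 comparisons of stages; filled points passed an adjusted p of 0.05 in edgeR (red higher, blue lower), open points did not, and the dotted line is the median of all genes tested. The 3 seed genes lie at 1.18 to 1.93 in the earlier step, and the 3 NST genes lie at -6.34 or lower over both intervals; the positions of NAC43 FtPinG0000381200.01 and NAC86 FtPinG0000422400.01 against initial maturity depend on the fit's prior count, since both had no count there.

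The stress class held the most abundant members. NAC2 FtPinG0002920400.01, matched to ATAF1, had the highest mean FPKM of the family, going from 124 ± 12 (SD, n = 3) through 271 ± 12.3 to 242 ± 43.4 over the stages. Its CPM were 71.7, 68.9 and 70.9, then 303, 307 and 306, then 296, 448 and 309, a rise of 2.11 in the earlier step (SE 0.22, adjusted p = 1.7e-04; with close pairs added, 0.0226). Green fruit lay below all later libraries, and the later step was not called (adjusted p = 0.472).

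NAC2 FtPinG0006563600.01 reached a like level from a lower start, and green fruit library 1 stood apart in it. Its CPM were 52.8, 4.92 and 4.87, then 178, 131 and 139, then 252, 394 and 260. The rise over both intervals was 3.86 (SE 0.89, adjusted p = 0.00437), and 5.95 (adjusted p = 4.4e-07) without green fruit library 1. The earlier step (2.84, adjusted p = 0.0254; 4.93 without green fruit library 1) lost its call without green fruit 2 or 3 or any discoloration library (adjusted p up to 0.0656) and with close pairs added (0.142).

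NAC2 FtPinG0000707100.01 rose by 2.98 in the earlier step (SE 0.34, adjusted p = 2.6e-04), from 1.13 to 1.35 CPM to 6.99 to 11.9. NAC2 FtPinG0005624400.01 rose over both intervals, from 26.5, 50 and 52 CPM to 150, 136 and 154 (1.77, SE 0.26, adjusted p = 3.3e-04), where library totals gave 0.40 (adjusted p = 0.224). Its step to discoloration (0.74, adjusted p = 0.0424) was -0.29 under library totals, 0.49 without green fruit library 1, and uncalled without green fruit 2, any discoloration library or initial maturity 1 or 3 (adjusted p up to 0.122). Its later step (1.03, adjusted p = 0.0123) was uncalled without discoloration 2 or 3 (up to 0.0558).

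Against these, NAC72 FtPinG0002173200.01, matched to the drought factor RD26, fell. It had 70.0, 4.28 and 3.88 CPM in green fruit, 0.306, 0.622 and 0.607 at discoloration and 1.91, 1.26 and 2.12 at initial maturity. The fall of 5.64 in the earlier step (-5.64, SE 1.23, adjusted p = 0.00625) was -2.96 (adjusted p = 1.0e-04) without green fruit library 1. Over both intervals it was -3.88 (adjusted p = 0.0123), -1.2 (0.00603) without green fruit library 1 and uncalled without initial maturity 2 (0.0522). Of the 8 genes of the class, 4 were higher and 1 lower in the earlier step, 3 and 0 in the later, and 6 and 1 over both, beside 19.5% and 19.9%, 16% and 20.4%, and 28.3% and 32.5% of all genes. With library totals they split 3 and 3, 0 and 0, and 3 and 2, and with close pairs added 3, 0 and 6 were called. Of all genes 7.74% and 68.3%, 7.98% and 30.4%, and 8.86% and 73.7% were called in the former setting, and 11.7%, 6.77% and 37.4% in the latter.

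**Figure D5:**
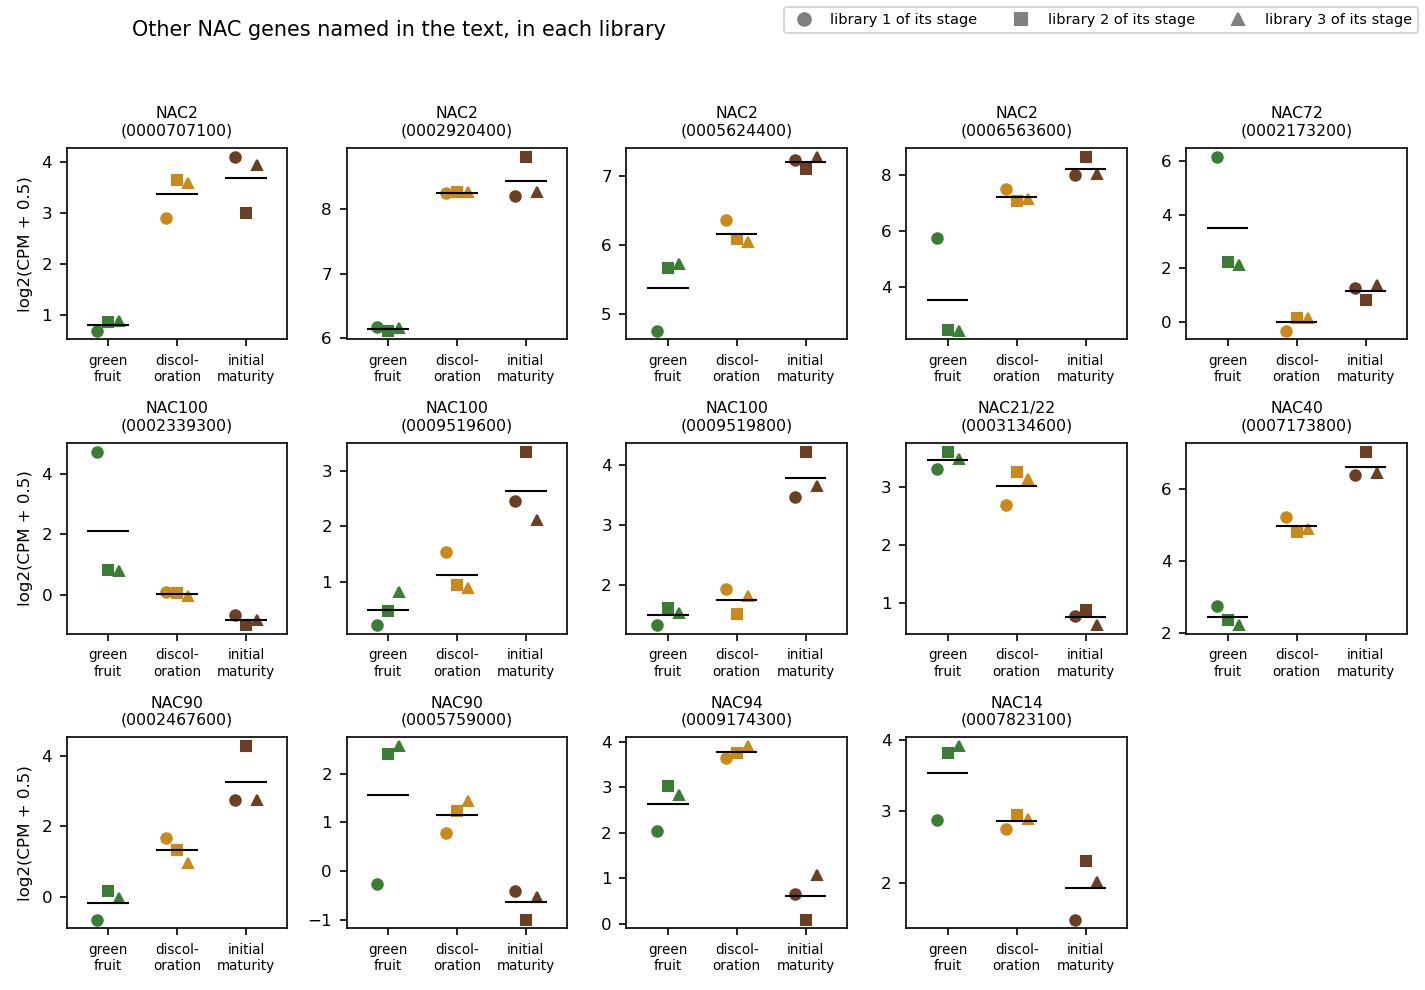
Level of the 14 NAC genes of the other classes that are named, as log2(CPM + 0.5), 1 panel per gene with its own axis; points are libraries, the shape gives the library number and the line is the mean of the stage. NAC40 is higher in each stage than in the one before (4.13 to 6.24, 27.5 to 36.8 and 83.7 to 131 CPM), and NAC72 FtPinG0002173200.01 and NAC100 FtPinG0002339300.01 are high in green fruit library 1 (70.0 and 26.2 CPM).

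A steady rise with stages that did not overlap was seen in NAC40 FtPinG0007173800.01, matched to NTL8, a membrane-bound factor that restrains germination under salt in Arabidopsis. It had 6.24, 4.57 and 4.13 CPM, then 36.8, 27.5 and 28.9, then 83.7, 131 and 86. It rose by 2.64 (SE 0.25, adjusted p = 1.1e-04) and again by 1.69 (SE 0.24, adjusted p = 0.00107), and both steps were called with library totals (1.67 and 1.33, adjusted p = 1.4e-04 and 9.7e-04) and with close pairs added (0.0118 and 0.0376).

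The 2 genes matched to NAC90, which delays leaf senescence in Arabidopsis, parted. NAC90 FtPinG0002467600.01 had 0.138, 0.612 and 0.485 CPM, then 2.65, 2.0 and 1.45, then 6.24, 18.8 and 6.25, a rise over both intervals of 4.62 (SE 0.62, adjusted p = 2.2e-04). Each step was called too (2.26 and 2.36, adjusted p = 0.0154 and 0.0107), the first not without discoloration library 1 (0.0534) and neither with close pairs added (0.074 and 0.0802). NAC90 FtPinG0005759000.01 had 0.33, 4.77 and 5.44 CPM in green fruit and 0.255, 0 and 0.193 at initial maturity, a fall by 4.52 (SE 1.10, adjusted p = 0.00579; with close pairs added, 0.0578).

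NAC94 FtPinG0009174300.01 and NAC21/22 FtPinG0003134600.01 dropped in the later step. The former had 3.6, 7.69 and 6.66 CPM, then 12.1, 13.1 and 14.5, then 1.08, 0.569 and 1.61, a fall by 3.60 (SE 0.39, adjusted p = 3.9e-04) after a rise of 1.14 (adjusted p = 0.0225, uncalled without discoloration 2 or 3, up to 0.074, and with close pairs added, 0.137). NAC21/22, matched to the auxin-induced lateral root factor NAC1, had 9.46 to 11.7 CPM, then 5.92 to 9.02, then 1.03 to 1.33, a fall by 2.70 (SE 0.23, adjusted p = 1.8e-04). Both falls were called with close pairs added (0.0262 and 0.0239).

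Of 8 genes matched to NAC100, a relative of the leaf senescence factor ORE1, 7 were tested and 2 lie side by side. NAC100 FtPinG0009519600.01 (chromosome 7, 8676256 to 8677435) and FtPinG0009519800.01 (8680736 to 8682027) are 3.3 kb apart on the authors' assembly, of a build that the labels and files do not name. Both rose in the later step, FtPinG0009519800.01 from 2.35 to 3.32 CPM to 10.6 to 18.3 (2.23, SE 0.26, adjusted p = 4.7e-04) and FtPinG0009519600.01 from 1.35 to 2.4 to 3.8 to 9.67 (1.83, SE 0.42, adjusted p = 0.00958; with close pairs added, 0.0821). Reads that such neighbours share could be counted for either.

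NAC100 FtPinG0002339300.01 fell, with 26.2, 1.26 and 1.22 CPM in green fruit and 0 to 0.127 at initial maturity. The change of -7.12 (SE 1.63, adjusted p = 0.0043) was -4.18 (adjusted p = 1.8e-04) without green fruit library 1. In the earlier step it was -4.19 (adjusted p = 0.0219), -1.25 (0.0252) without green fruit library 1, and uncalled without any one of the discoloration libraries (up to 0.0754) and with close pairs added (0.068). NAC14 FtPinG0007823100.01, of the membrane-bound class, fell by 1.77 over both intervals (SE 0.33, adjusted p = 0.00126), from 6.85 to 14.6 CPM to 2.29 to 4.42.

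By class, the other members were mixed. Of 8 membrane-bound genes 4 were higher and 3 lower at initial maturity than in green fruit, of 11 tested root and organ genes 4 and 3, of 5 tested phloem genes (NAC45 and NAC86, which act in sieve tubes in Arabidopsis) 2 and 1, and of 9 tested others 4 and 3, beside 28.3% and 32.5% of all genes. NAC40, though matched to a membrane-bound factor, was counted with the others. With library totals the splits were 0 and 6, 3 and 6, 1 and 2, and 2 and 6, and with close pairs added 2, 6, 3 and 4 genes were called. Of all genes 8.86% were higher and 73.7% lower with library totals, and 37.4% were called with close pairs added. The phloem genes were weakly expressed, at 1.91 to 5.05 CPM in sum over 7 genes in any library. In green fruit, library 1 differed by more than 3-fold from the mean of libraries 2 and 3 in 12 of the 66 tested members (7 higher, 10.6%, and 5 lower, 7.58%), beside 6.18% and 5.55% of all genes.

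Neighbouring members did not always move together. NAC72 FtPinG0002173200.01 and NAC56 FtPinG0002173000.01 lie 7.8 kb apart on chromosome 8 (3793046 to 3794177 and 3801979 to 3803532) with no gene model between them, and in the earlier step the first fell and the second rose, as given above. NAC56 FtPinG0002560000.01 and NAC19 FtPinG0002561000.01 are 48.2 kb apart on chromosome 1, and the second, chosen for its position, was called in no comparison (log2 0.67 over both intervals, adjusted p = 0.0906). In all, 6 pairs of members were within 200 kb of each other, and the 73 genes were spread over 8 chromosomes, from 4 on chromosome 6 to 19 on chromosome 1.

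Genes listed for secondary wall formation and synthesis were more often called lower than higher. Of 10 tested MYB genes, named MYB26, MYB46 or MYB86, 3 were higher and 5 lower at discoloration than in green fruit, 0 and 4 in the later step, and 1 and 8 over both. Of 27 tested wall synthesis genes (cellulose, xylan and lignin), 2 were higher and 16 lower, 1 and 7, and 2 and 20. The shares of all genes were 19.5% and 19.9%, 16% and 20.4%, and 28.3% and 32.5%. With library totals the MYB genes split 2 and 7, 0 and 5, and 0 and 9, and the synthesis genes 0 and 24, 1 and 9, and 1 and 25. Of all genes 7.74% were higher and 68.3% lower on that scale, then 7.98% and 30.4%, and 8.86% and 73.7%. Of the MYB genes 4, 3 and 9 were called with close pairs added, and of the synthesis genes 7, 3 and 19. Of all genes 11.7%, 6.77% and 37.4% were called in that setting. CESA4 FtPinG0000375900.01, a cellulose synthase of secondary walls, is also among the vascular and hull markers. It had 25.2, 260 and 273 CPM in green fruit, low in library 1 as the NST genes were, and 2.4 to 6.94 in the later libraries (-5.52, SE 0.86, adjusted p = 0.0013). MYB86 FtPinG0002967800.01 went against its list, with a rise of 2.86 at discoloration (SE 0.23, adjusted p = 5.7e-05), from 3.94 to 4.87 CPM to 29.4 to 35.0.

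Lists for senescence and cell death were mixed. Of 19 tested senescence target genes, 9 were higher and 1 lower in the earlier step, 1 and 8 in the later, and 6 and 10 over both, with medians of 0.51, -0.53 and -0.64, beside the same shares of all genes. The list also took in genes named SGR2 and SGR9, by shared letters only. Without these 17 were tested, with 9 higher and 1 lower, 1 and 7, and 5 and 9. With library totals the 19 genes split 3 and 9, 0 and 10, and 1 and 14 (medians -0.49, -0.87 and -1.99). More of these genes were then called lower than higher in the earlier step, as were more of all genes. Of all genes 7.74% were higher and 68.3% lower on that scale, then 7.98% and 30.4%, and 8.86% and 73.7%. With close pairs added 4, 2 and 8 of the 19 were called, beside 11.7%, 6.77% and 37.4% of all genes. Abscisic-aldehyde oxidase FtPinG0002397900.01, the enzyme of the last step of abscisic acid synthesis, rose by 2.41 in the earlier step (SE 0.41, adjusted p = 0.00201), from 27.1 to 52.5 CPM to 156 to 376. Of 11 tested genes of xylem and organ death, 3 were higher and 4 lower, 4 and 2, and 4 and 3, beside the shares of all genes given first in this paragraph. With library totals they split 1 and 7, 3 and 4, and 3 and 7, and with close pairs added 2, 0 and 6 were called. The shares of all genes in those settings are the ones given above for the senescence targets. Without the genes named Ribonuclease 3-like, taken in by shared letters only, 9 were tested, with 2 and 4, 4 and 2, and 3 and 3. Ribonuclease 3 FtPinG0006040700.01 among them rose by 3.99 over both intervals (SE 0.55, adjusted p = 2.6e-04), from 13.8 to 23.3 CPM to 229 to 369.

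A further 11 genes carry other names of NAC proteins and fall outside the rule, 6 of them tested. All 6 were called between green fruit and initial maturity, 3 in each direction, beside 60.8% of all genes. The same held with library totals, beside 82.6%, and with close pairs added 5 were called, beside 37.4%. The most abundant called one was NTM1-like 9 FtPinG0008478400.01, which fell by 0.69 in the later step (SE 0.18, adjusted p = 0.0148; with close pairs added, 0.119), from 25.9 to 31.9 CPM to 13.3 to 19.6.

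The authors' deposited table gives its own adjusted p-values for the same comparisons. Under 0.05 in the authors' deposited table were 21, 27 and 32 of the 73 members, fewer than or as many as the 35, 27 and 48 called here. Of these, 21, 21 and 32 were called in both.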

How the data were processed

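RNA was sequenced from seed samples in 9 libraries, 3 per stage. The authors deposited read counts per gene and FPKM per gene, per the file headers; the submitters' processing notes name Bowtie2 2.0.6 and TopHat2 2.0.12, while no label or header names the counting program, the genome build or the annotation release. Their annotation table, as deposited by the authors, holds adjusted p-values whose test is not stated. Variant tables hold deposited genotype calls for these libraries; 9 further columns in each match no sample here and were not used. The kit does not mark strand, so a gene and an antisense partner, and near-identical copies, could not be told apart.

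Members were found by the Swiss-Prot protein name and put in classes by name. The members, the classes and the other lists were chosen with earlier results of these data known. Named are all tested secondary wall, xylem repressor, senescence and seed members; of the rest, per adjacent comparison, the 4 highest and 4 lowest called log2 fold changes with a mean CPM of at least 1; the 5 members of highest mean FPKM; and per other list the called gene of highest mean CPM. Any other named gene was chosen after its values were seen.

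Deposited counts were tested with edgeR 4.0.16 in R 4.3.3 (TMM factors 0.6347 to 1.833, filterByExpr with a minimum count of 10, glmQLFit and glmQLFTest, stage as the only term, all 9 libraries in 1 fit, Benjamini-Hochberg adjustment over 23631 genes, threshold 0.05); SE is the log2 fold change divided by the root of F. The fit was tested on simulated counts. Alternatives were other scaling (DESeq2 size factors, library totals), DESeq2 1.42.0, other filters, each library left out, close pairs added together, the libraries standing apart left out, a replicate block, and other class lists. Library numbers were checked for pairing: same-numbered libraries of different stages had correlations of their deviations from the stage means of -0.138 to 0.129, so they were not taken as pairs. A fold against a stage at 0 uses a floor of 3 counts over that stage, for counting error only. No sequences are printed.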

Additional observations from a re-analysis of the deposited data

Results flagged for a closer look

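Among the named members, 7 rose from green fruit to discoloration and fell from discoloration to initial maturity, with both steps called in edgeR and the difference between the steps called by its own test. That difference, the later log2 fold change minus the earlier, was -3.05 (adjusted p = 4.1e-04) for NAC56 FtPinG0002173000.01, -3.61 (1.4e-04) for NAC56 FtPinG0002731100.01, -3.91 (0.00156) for NAM-B2 FtPinG0005875600.01, -2.34 (9.9e-04) for NAC83 FtPinG0005688900.01, -4.75 (0.0011) for NAC94 FtPinG0009174300.01, -3.22 (0.0122) for NAC37 FtPinG0001096800.01 and -1.55 (0.00751) for NAC76 FtPinG0008197900.01. With close pairs added the adjusted p was 0.0388 for NAC56 FtPinG0002731100.01 and 0.05 for NAC56 FtPinG0002173000.01, both called, and 0.0836, 0.0778, 0.0605, 0.194 and 0.189 for the others in the order above. With library totals the difference was called for 6 of the 7 (adjusted p = 5.4e-04 to 0.0185; NAC76 0.0766), but the rise was called only for NAC56 FtPinG0002731100.01 (log2 0.94, adjusted p = 7.7e-04). The other rises were then 0.17 (adjusted p = 0.453) for NAC56 FtPinG0002173000.01, 0.40 (0.223) for NAM-B2, 0.31 (0.0826) for NAC83, 0.12 (0.779) for NAC94, 0.27 (0.514) for NAC37 and -0.10 (0.658) for NAC76. Leaving out discoloration library 3 gave 0.0686 for NAC37, and leaving out discoloration library 2 gave 0.0517 for NAC76.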

How the results depend on the processing

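With close pairs added the members called numbered 13 (discoloration against green fruit), 9 (initial maturity against discoloration), 34 over the 3 stages and 2 for the difference between steps; without the libraries standing apart they numbered 57, 49 and 45 of 67 members in the first, second and last of these, the NAC12 gene being tested too. Leaving out 1 library gave 22 to 45, 19 to 37, 43 to 56 (initial maturity against green fruit), 47 to 61 over the stages and 11 to 33 for the difference between steps, the 22 and 11 without discoloration library 2 and the 45 and 33 without green fruit library 1. The class difference (wall median minus senescence and seed median) was -2.91 without the libraries standing apart and -3.80 with the 5 wall names alone in the earlier step, with -2.69 to -1.84 on leaving out 1 library. In the later step it was -0.74 with no filter, -0.91 with a CPM filter, -0.73 with only the compared stages fitted, -2.11 without the libraries standing apart, -0.87 with the 5 names and -2.04 to -0.68 on leaving out 1 library, the lowest without discoloration 1 and the highest without discoloration 3. Over both it was -3.93 with the 5 names and -3.04 to -2.60 on leaving out 1 library. Without NAC12, the values without the libraries standing apart were -2.66 in the earlier and -1.46 in the later step. The cause of the other shifts was not tested.

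With the replicate block, although the numbers were not found to pair the libraries, the members called numbered 31, 26, 45, 51 over the stages and 19 for the difference between steps.

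Among the named members, library totals turned the sign of 2 called log2 fold changes, NAC76 FtPinG0008197900.01 (-0.10) and NAC2 FtPinG0005624400.01 (-0.29), both in the earlier step, and of uncalled ones. Those of the earlier step were NAC73 FtPinG0006134400.01 (-0.75) and FtPinG0009656900.01 (-0.69), NAC29 FtPinG0005406300.01 (-0.50), NAC83 FtPinG0003149900.01 (-0.36) and FtPinG0005885800.01 (-0.26), and NAC100 FtPinG0009519800.01 (-0.68) and FtPinG0009519600.01 (-0.13). In the later step they were NAM-B2 FtPinG0004292100.01 (-0.09) and NAC2 FtPinG0002920400.01 (-0.16; -0.02 without the libraries standing apart, -0.02 to 0.31 on leaving out 1 library). Over both they were NAC76 FtPinG0008197900.01 (-1.12), NAC56 FtPinG0002731100.01 (-1.09) and NAC83 FtPinG0005688900.01 (-1.08). Other uncalled values turned with single libraries: NAC73 FtPinG0006134400.01 lay at -0.34 to 1.81 in the earlier step (-0.42 with close pairs added), at 0.00 in the later step with close pairs added, and at -0.53 to 1.62 over both (0.31 with the block, 1.41 without the libraries standing apart). NAM-B2 FtPinG0004292100.01 lay at -0.14 to 0.54 in the later step, and NAC29 FtPinG0006087500.01 at -1.54 to 1.94 in the earlier step (2.02 without the libraries standing apart). Over all named members and alternatives, called values kept direction and threshold 1241 times, lost the threshold 128 times and turned 2 times; uncalled values stayed so 618 times, passed it 63 times and turned 27 times. Counting depth limits members under about 1 CPM.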

Other observations

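In the deposited variant tables, 48 SNP sites lay in 28 of the 73 members. The alternative call was the same in all 9 libraries at 11 of these sites, in 7 members. Calls differed between libraries at 25, with missing calls not set apart from differing ones. InDel sites numbered 25, in 9 members, and 17 of them, in 6 members, had the alternative call in all 9 libraries. JUNGBRUNNEN 1 FtPinG0007041900.01, a NAC gene under another name that delays leaf senescence in Arabidopsis and was chosen after its values were seen, had 0.0825, 0.102 and 0.179 CPM in green fruit, 2.45, 1.82 and 2.34 at discoloration and 10.1, 1.71 and 8.89 at initial maturity, a rise over both intervals of 5.78 on the log2 scale (SE 0.69, adjusted p = 1.2e-04 in edgeR).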
